A study of Mus musculus with 12 samples.

Results

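The liver makes most proteins of the blood plasma, and 48 mouse genes that encode complement, coagulation and related plasma proteins were followed here across livers and liver tumors. They were chosen by a list of gene symbols, out of 24421 symbols in the count files. The 48 genes fall into 8 roles: 8 of the classical and lectin pathways of complement, 3 of C3 and its alternative pathway, 6 of the terminal pathway, 7 vitamin K-dependent factors, 7 cofactors and contact factors, 3 fibrinogen chains, 5 of fibrinolysis and related proteases, and 9 other plasma proteins. All 48 were found in the files and all 48 passed the low-count filter of every comparison. The lowest number of reads on any of them was 145, for Masp1, and 46 had at least 500 reads in each of the 12 libraries.

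Poly(A) RNA was sequenced in bulk from 6 liver tumors and from non-tumoral liver of the same 6 aged mice, all kept on a standard diet. In p21+/Tert mice, telomerase reverse transcriptase (Tert) is expressed under the promoter of p21 (Cdkn1a), a gene of cell cycle arrest and senescence, and in p21+/TertCi mice the same promoter drives a catalytically inactive Tert. Livers of both genotypes therefore carry a Tert allele, and no wild-type liver was analysed here. The p21+/Tert mice gave 4 livers and 4 tumors (T-HCA992, T-HCC941, T-HCC663 and T-HCC662), and the p21+/TertCi mice gave 2 livers and 2 tumors (TCi-HCC981 and TCi-HCA984). HCC stands for hepatocellular carcinoma and HCA for hepatocellular adenoma, as the study names the tumors, although its histology lists T-HCC663 as an adenoma. By the mutations that the study gives for each tumor, T-HCC662 and T-HCC663 carry a mutated Ctnnb1 (the gene of β-catenin), T-HCC941 a mutated Egfr, TCi-HCC981 a mutated Hras, and T-HCA992 and TCi-HCA984 none of these. Both Ctnnb1-mutated tumors came from p21+/Tert mice, so that the 2 classes can be set side by side within that genotype only. One p21+/Tert liver is labelled with a number that no tumor has, and was taken as the liver of the T-HCC662 mouse by elimination. The sex of the mice is not given in the sources used here, and Xist did not exceed 1.46 CPM while the Y-linked Ddx3y was at least 36.3 CPM in all 12 libraries.

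Complement is a cascade of plasma proteases. It is started by antibody (classical pathway), by sugars bound by mannose-binding lectins (lectin pathway) or by slow activation of C3 (alternative pathway), and it ends with C5 to C9 assembling into a pore, the membrane attack complex. Coagulation is a second protease cascade that converts prothrombin to thrombin and fibrinogen to fibrin, and plasmin, made from plasminogen, dissolves the clot. Hepatocytes secrete nearly all of these proteins, and part of them, fibrinogen and C3 among them, belong to the acute phase proteins that the liver makes in larger amounts during inflammation.

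The libraries held 14571716 to 26170661 counted reads. Levels are given in CPM, the reads of a gene for every 1000000 reads of its library after scaling by TMM, a normalization that sets most genes equal between libraries. The 48 genes took 4.98% to 11.0% of all reads in the livers, 3.28% and 3.71% in T-HCC662 and T-HCC663, and 6.87% to 11.4% in the other tumors. The livers of the T-HCC941 and TCi-HCA984 mice stood apart by acute phase genes: serum amyloid Saa1 was at 19183 and 11406 CPM there and at 71.9 to 584 CPM in the other 4 livers. Albumin (Alb), the main product of hepatocytes, ran from 9546 to 31956 CPM in livers, was 16621 and 5982 CPM in the Ctnnb1-mutated tumors and 47664 to 72143 CPM in the others. In bulk tissue, fewer cells of a type and less RNA per cell cannot be told apart.

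Each tumor was first set beside the liver of its own mouse, as the log2 ratio of CPM + 1. In T-HCC662, 44 of the 48 genes were lower than in the own liver (median log2 ratio -0.84), and in T-HCC663 46 of 48 were lower (median -1.04). T-HCC941 followed with 36 lower (median -0.46) and T-HCA992 with 30 (median -0.13). The order of these 2 depends on the liver used. Set beside the mean of all 6 livers, the median was -0.14 in T-HCC941 and -0.46 in T-HCA992. In the p21+/TertCi tumors the genes divided evenly, with 23 lower in TCi-HCC981 (median 0.10) and 25 lower in TCi-HCA984 (median -0.02). The median over all 13822 genes tested lay between -0.02 and 0.01 in the 6 tumors. The plot of the log2 ratios by role shows the same genes side by side.

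**Figure D1:**
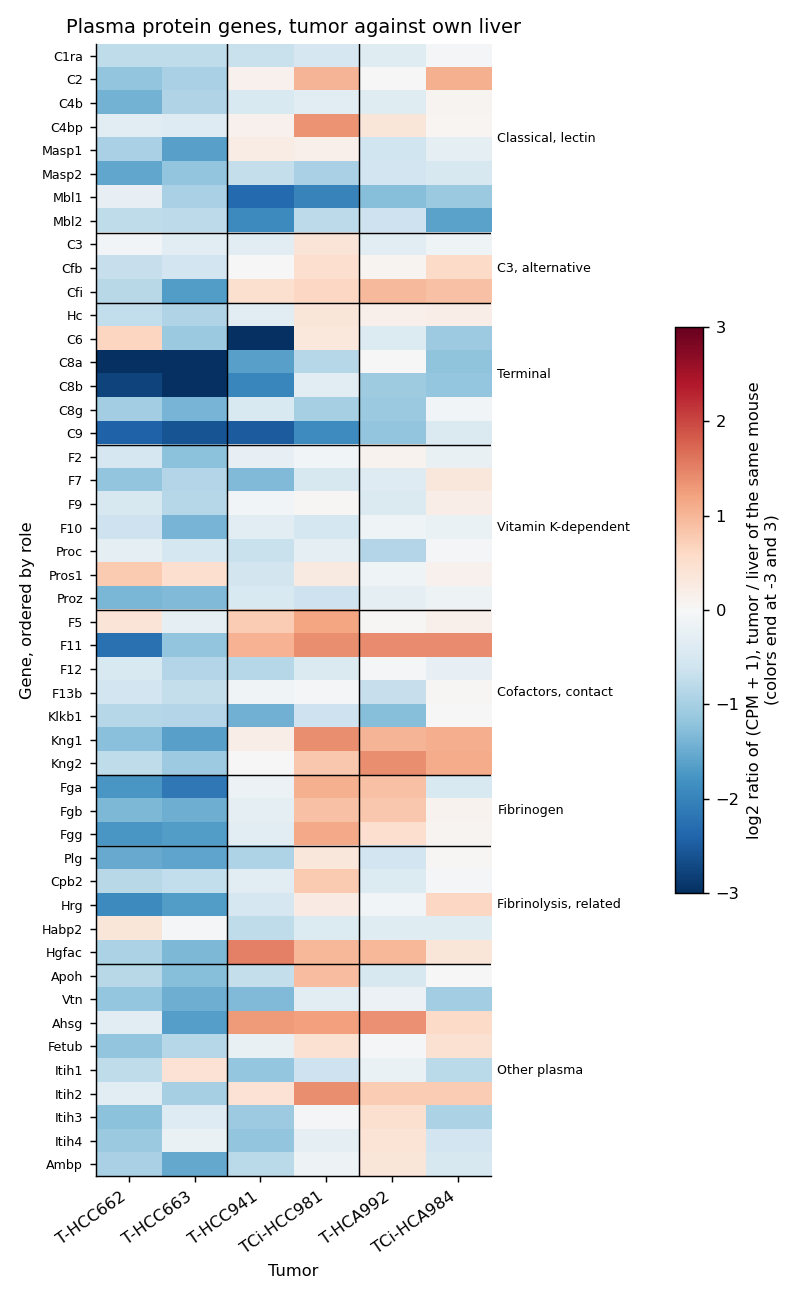
Log2 ratio of CPM + 1 in each tumor against the liver of the same mouse for the 48 genes, ordered by role, with blue for lower and red for higher in the tumor. T-HCC662 and T-HCC663 are blue in 44 and 46 rows, whereas C8b and C9 are blue in all 6 tumors.

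No gene was higher than its own liver in all 6 tumors, and 13 were lower in all 6: C1ra, Masp2, Mbl1, Mbl2, C8a, C8b, C8g, C9, F10, Proc, Proz, F12 and Vtn. Among all genes tested, 11.0% were higher and 11.5% were lower in all 6. A stricter count asked which genes of a tumor lay below all 6 livers. It gave 36 of 48 in T-HCC662 and 36 of 48 in T-HCC663, where 21.7% and 23.6% of all genes did so. It gave 16 in T-HCC941 (26.5% of all genes), 23 in T-HCA992 (25.7%), 13 in TCi-HCC981 (29.4%) and 14 in TCi-HCA984 (21.1%). Above all 6 livers were 2 genes in T-HCC662 (22.6% of all genes), 0 in T-HCC663 (23.8%), 8 in T-HCC941 (24.5%), 4 in T-HCA992 (24.6%), 13 in TCi-HCC981 (27.7%) and 14 in TCi-HCA984 (20.7%).

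Tumors of both genotypes were compared with livers to ask which of the genes differ between tumor and non-tumoral tissue whatever the mutation. By edgeR's quasi-likelihood F test with Benjamini-Hochberg adjustment over all genes tested, 6 of the 48 genes were lower in the 6 tumors and 0 were higher, at a threshold of 0.05. Over all 13822 genes 10.7% passed, 3.91% as lower and 6.77% as higher. At an unadjusted p under 0.05, 15 of the 48 were lower and 0 higher, and DESeq2 called 12 lower and 0 higher. The 6 genes were C8a, C8b, C8g and C9 of the terminal pathway, and Masp2 and Mbl1 of the lectin pathway. They make up 4 of the 6 terminal and 2 of the 8 classical and lectin genes. The median log2 fold change was -0.34 over the 48 genes and 0.01 over all genes tested, and 35 of the 48 were negative.

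C8 is made of 3 chains, each from a gene of its own, and joins the forming pore before C9, which lines it. In the 6 livers, C9 ranged from 257 to 563 CPM (median 367). It was 75.5 and 81.4 CPM in T-HCC662 and T-HCC663, and 98.3 CPM in T-HCC941, 86.5 CPM in TCi-HCC981, 129 CPM in T-HCA992 and 191 CPM in TCi-HCA984. All 6 tumors were below all 6 livers, and C9 was 3.56-fold lower (log2 fold change -1.83, SE 0.29, adjusted p = 0.00233). C8b, the β chain, ranged from 144 to 339 CPM (median 266) in livers. It was 39.8 and 40.0 CPM in T-HCC662 and T-HCC663, and 73.9 CPM in T-HCC941, 115 CPM in TCi-HCC981, 80.0 CPM in T-HCA992 and 111 CPM in TCi-HCA984. The groups did not overlap here either, the Ctnnb1-mutated tumors were the lowest pair, and C8b was 3.21-fold lower in tumors (log2 fold change -1.68, SE 0.32, adjusted p = 0.00598).

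C8a, the α chain, ranged from 540.1 to 1317 CPM (median 1019) in livers. It was 116 and 149 CPM in T-HCC662 and T-HCC663, and 423 CPM in T-HCC941, 299 CPM in TCi-HCC981, 569.6 CPM in T-HCA992 and 399 CPM in TCi-HCA984. Only T-HCA992 reached into the liver range, and C8a was 2.90-fold lower in tumors (log2 fold change -1.54, SE 0.40, adjusted p = 0.028). C8g, the γ chain, ranged from 466 to 850.1 CPM (median 591) in livers, and was 414 and 276 CPM in T-HCC662 and T-HCC663, and 450.3 CPM in T-HCC941, 281 CPM in TCi-HCC981, 252 CPM in T-HCA992 and 441 CPM in TCi-HCA984. All 6 tumors were below all 6 livers, by 1.80-fold on average (log2 fold change -0.84, SE 0.23, adjusted p = 0.0327). The C8a and C8b genes are neighbors on chromosome 4, 11.1 kb apart, and their ratio was 3.42 to 4.52 in livers and 2.60 to 7.12 in tumors, whereas C8g is on chromosome 2.

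The first components of the terminal pathway differed less. Hc, which encodes C5, ranged from 781 to 1401 CPM (median 928) in livers and from 539 to 1131 CPM in tumors, and did not pass the test (log2 fold change -0.19, SE 0.26, adjusted p = 0.691). C6 spread widely, with 113 to 348 CPM in livers and 29.6 to 249 CPM in tumors (adjusted p = 0.353). Summed over its 6 genes, the terminal pathway had 2477 to 4541 CPM in livers, 1319 to 1433 CPM in the Ctnnb1-mutated tumors and 1977 to 2305 CPM in the others, without overlap between livers and tumors.

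**Figure D2:**
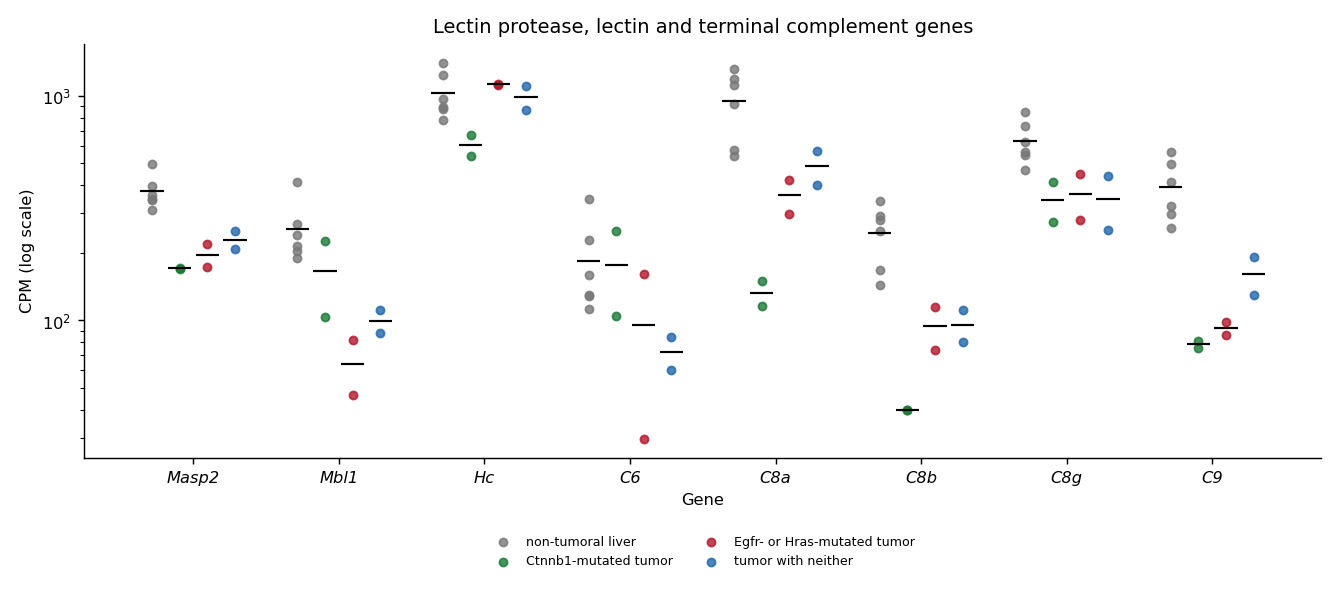
CPM (log scale) of Masp2, Mbl1 and the terminal complement genes in each library, with a point per library and a black line at the mean of each class. For Masp2, C8b, C8g and C9 every tumor lies below every liver, and C8a and C8b are lowest in the Ctnnb1-mutated tumors.

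Mannose-binding lectins carry proteases, and MASP2, the protease that cleaves C4 and C2, is encoded by Masp2. Masp2 ranged from 310.2 to 497 CPM (median 355) in livers, and was 169 and 172 CPM in T-HCC662 and T-HCC663, and 219 CPM in T-HCC941, 173 CPM in TCi-HCC981, 209 CPM in T-HCA992 and 249 CPM in TCi-HCA984. All 6 tumors were below all 6 livers, and Masp2 was 1.90-fold lower (log2 fold change -0.93, SE 0.18, adjusted p = 0.0063). Masp2 overlaps Tardbp, which lies on the opposite strand, and without strand in the counting reads of the overlap cannot be told apart. Mbl1, one of the pair of mannose-binding lectin genes of the mouse, ranged from 190.2 to 414 CPM (median 228) in livers, and was 227 and 104 CPM in T-HCC662 and T-HCC663, and 82.0 CPM in T-HCC941, 46.4 CPM in TCi-HCC981, 88.4 CPM in T-HCA992 and 111 CPM in TCi-HCA984. T-HCC662 lay within the liver range and the other 5 tumors lay below it, and Mbl1 was 2.35-fold lower in tumors (log2 fold change -1.23, SE 0.33, adjusted p = 0.033). Mbl2, the other lectin gene, ranged from 173 to 674 CPM (median 505) in livers and from 56.3 to 329 CPM in tumors and did not pass (adjusted p = 0.148).

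4 of the 48 genes, Masp2, C8b, C8g and C9, had all 6 tumors below all 6 livers, where 2.18% of all genes tested did, and 0 had all tumors above, where 2.93% did. C8b, C9 and Masp2 passed the test in each of the 12 fits that left out 1 library. C8a lost its call (adjusted p up to 0.0608) without the liver of the T-HCC662, T-HCC663 or T-HCC941 mouse or without TCi-HCC981. C8a and C8g also lost it (adjusted p = 0.0774 and 0.0657) in the fit with mice as blocks on the 5 mice whose liver and tumor numbers match in the labels, which called 5 of the 48 genes. C8g lost it (up to 0.0778) without the liver of the T-HCC662, T-HCC663 or T-HCC941 mouse or without T-HCC663, T-HCA992 or TCi-HCC981. Mbl1 lost it (up to 0.0759) without the liver of the T-HCC662 or T-HCC941 mouse or without T-HCC663, T-HCC941, T-HCA992 or TCi-HCC981. The count of 6 fell to 3 without the liver of the T-HCC662 or T-HCC941 mouse or without TCi-HCC981, and to 3 when the livers of the T-HCC941 and TCi-HCA984 mice were both left out.

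DNA copy number was not analysed here, and the median expression of whole chromosomes was taken beside these genes. Chromosome 4, with C8a, C8b and Masp2, had a median log2 ratio to the own liver that differed from that of all genes by -0.28 in T-HCC662, -0.14 in TCi-HCC981 and -0.12 in T-HCC941, and by -0.08 to 0.03 in the other 3 tumors. Chromosome 15, with C9 and C6, differed by 0.52 in T-HCC662, 0.37 in TCi-HCC981 and 0.04 to 0.22 in the others. The part of either chromosome in the levels of these genes was not tested. Of the other factors that hepatocytes use, Cebpa and Nr1h4 were lower in tumors among 12 hepatocyte transcription factor genes tested, and 0 of the 12 were higher.

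The 250 bases before the start sites of C8a, C8b and Masp2, 3 of the 6 genes and all on chromosome 4, are shown to give the sequence beside the values. They are RefSeq sequences of GRCm38 on the strand of each gene, written 5′ to 3′, at chr4:104876399-104876648 (minus strand), chr4:104766067-104766316 (plus strand) and chr4:148602294-148602543 (plus strand), and the genes themselves span chr4:104815679-104876398, chr4:104766317-104804548 and chr4:148602554-148615499. Capitals mark matches to 6 motifs, searched on both strands: the interleukin 6 response element CTGGGAA, the STAT site TTCNNNGAA, the C/EBP site TTGCNNAA, the HNF1 site, the HNF4 site CAAAGTCCA and the TCF/LEF site CTTTGAT.
C8a: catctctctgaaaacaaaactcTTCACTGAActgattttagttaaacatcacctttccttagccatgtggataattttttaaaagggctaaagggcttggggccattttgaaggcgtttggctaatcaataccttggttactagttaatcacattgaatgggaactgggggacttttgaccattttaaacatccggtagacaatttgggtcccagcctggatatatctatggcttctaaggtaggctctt
C8b: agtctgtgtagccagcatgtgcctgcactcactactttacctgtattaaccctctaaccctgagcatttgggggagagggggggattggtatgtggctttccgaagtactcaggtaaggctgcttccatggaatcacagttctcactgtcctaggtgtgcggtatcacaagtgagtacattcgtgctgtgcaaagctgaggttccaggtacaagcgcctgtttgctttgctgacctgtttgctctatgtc
Masp2: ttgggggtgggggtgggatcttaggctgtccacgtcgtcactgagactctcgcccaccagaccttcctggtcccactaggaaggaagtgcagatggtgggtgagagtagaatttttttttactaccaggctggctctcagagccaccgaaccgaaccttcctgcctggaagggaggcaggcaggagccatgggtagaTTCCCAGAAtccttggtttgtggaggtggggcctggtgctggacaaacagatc
C8a has a STAT match that begins 228 bases before the start site, C8b has 0 matches, and Masp2 has a STAT match that overlaps an interleukin 6 element match, both beginning 53 bases before the start. In the 42 promoters found for 40 of the 48 genes, the STAT letters were in those of 8 genes, the interleukin 6 letters in 6, the C/EBP letters in 12, the HNF1 letters in 4 (C4bp, F13b, Hc and Habp2) and the HNF4 and TCF/LEF letters in 0. Of 32851 promoters of all genes, 7.02% held the STAT letters, 9.1% the interleukin 6 letters, 9.56% the C/EBP letters, 0.371% the HNF1 letters, 0.384% the HNF4 letters and 3.21% the TCF/LEF letters.

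The tumors were then divided by mutation, to ask how the genes differ between tumors with a mutated Ctnnb1 and the others. Against the 6 livers, 11 of the 48 genes were lower in the Ctnnb1-mutated tumors and 0 were higher (8.2% of 15182 genes tested passed, 3.2% as lower and 5.0% as higher). At an unadjusted p under 0.05, 30 were lower and 0 higher in edgeR, and DESeq2 called 26 lower and 0 higher. These were C8a, C8b, C9, Masp1, Masp2, C4b, Cfi, Proz, Hrg, Plg and Ambp. The median log2 fold change of the 48 genes was -0.97, against -0.03 over all genes, and 44 of 48 were negative. Both Ctnnb1-mutated tumors were below all 6 livers in 33 of the 48 genes, where 12.6% of all genes were, and above them in 0, where 12.7% were. The count of 11 fell to 3 without T-HCC662, to 4 without T-HCC663, to 7 without the liver of the T-HCC663 mouse and to 6 without the livers of the T-HCC941 and TCi-HCA984 mice, and only C8b, C9 and Proz passed in all 12 fits that left out 1 library.

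In the 4 other tumors, 8 of the 48 genes were lower than in livers and 5 were higher (22.8% of all genes passed, 11.5% as lower and 11.3% as higher). C8a, C8b, C8g, C9, Masp2, Mbl1, Klkb1 and Habp2 were lower, and Cfi, Hgfac, Itih2, Kng1 and Kng2 were higher. The median log2 fold change was -0.16, against -0.03 over all genes. All 4 tumors were below all 6 livers in 7 genes (7.94% of all genes) and above them in 4, Cfi, Kng1, Kng2 and Hgfac (8.59%). With mice as blocks, 8 of the 48 genes passed, 3 higher and 5 lower. Without 1 library the count of 13 fell to 7 (without the liver of the T-HCC941 mouse or without TCi-HCA984) or to 8 (without the liver of the T-HCC662 mouse or without TCi-HCC981), and C8b, C9, Masp2 and Mbl1 passed in all 12 such fits.

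Between the classes, 14 of the 48 genes were lower in the Ctnnb1-mutated tumors than in the 4 others and 0 were higher (12.5% of all genes passed, 5.72% as lower and 6.76% as higher). At an unadjusted p under 0.05, 27 were lower and 3 higher in edgeR, and DESeq2 called 23 lower and 1 higher. They were Fga and Fgg, Kng1 and Kng2, Ahsg and Hrg, F11, Cfi, C8a, C8b, Masp1, Proz, Hgfac and Itih2. By role these were 2 of 3 fibrinogen chains, 3 of 7 cofactors and contact factors, 2 of 5 fibrinolysis genes, 2 of 6 terminal genes, 2 of 9 other plasma proteins, and 1 each of the classical and lectin, C3 and alternative, and vitamin K-dependent genes. The median log2 fold change was -0.96, against -0.00 over all genes. The Ctnnb1-mutated pair was below all 4 others in 30 genes (19.0% of all genes) and above them in Proc, Pros1, Klkb1 and Habp2 (19.3% of all genes were above). With mice as blocks only Cfi, F11 and Hgfac passed (adjusted p = 0.0483, 0.011 and 0.0349). A fit on the 6 tumors alone called 5 genes, leaving out T-HCC662 or T-HCC663 left 2, and leaving out TCi-HCC981 or TCi-HCA984 left 7. Within the p21+/Tert tumors alone, the direction of Cfi and Kng1 was the same, with 259.8 ± 76.6 CPM against 897 ± 88.6 CPM for Cfi and 990.3 ± 171 CPM against 3177 ± 329 CPM for Kng1 (SD, n = 2 each), without a test. The comparisons of the 2 classes with livers share the 6 livers, and are therefore not independent of each other.

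**Figure D3:**
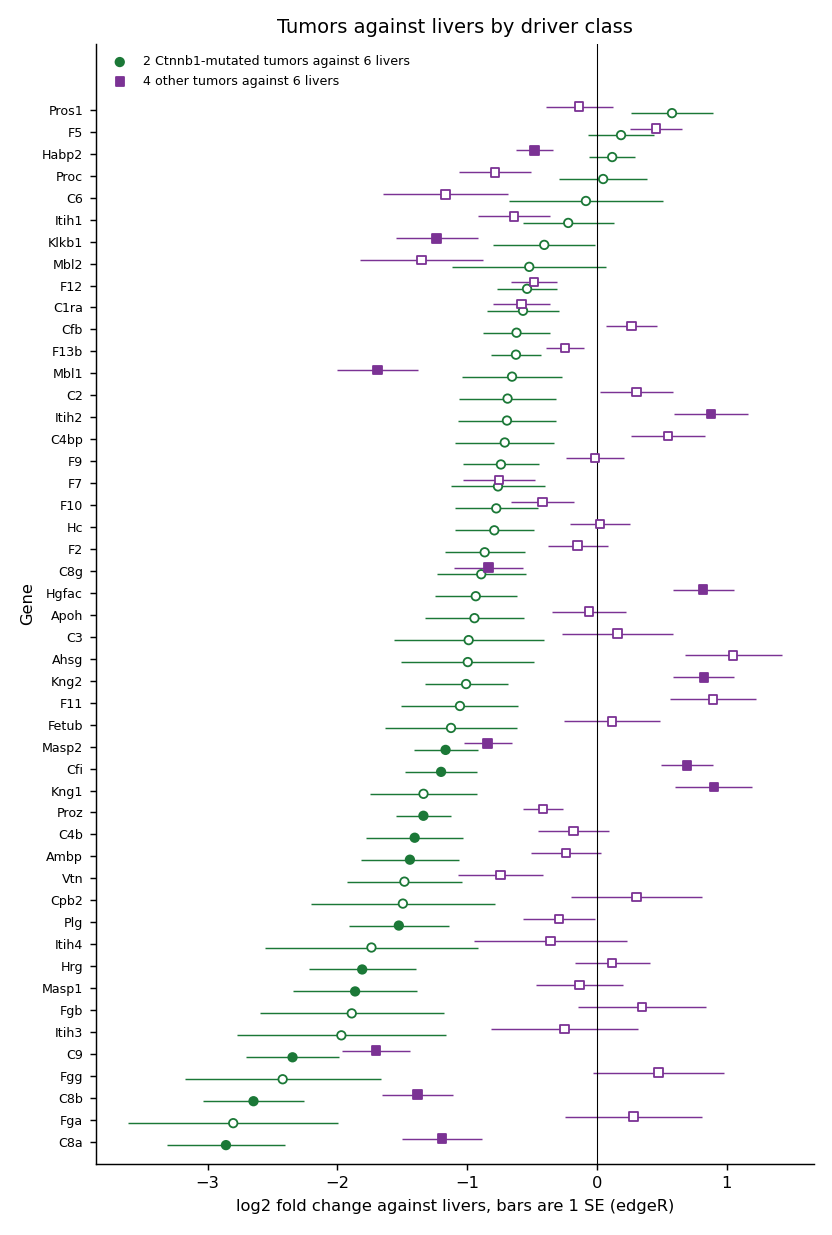
Log2 fold change against the 6 livers (bars, 1 SE from edgeR) of the 48 genes in the 2 Ctnnb1-mutated tumors (green circles) and in the 4 other tumors (purple squares), with filled symbols for an adjusted p under 0.05. Green lies left of 0 for 44 genes, and purple is filled right of 0 for Cfi, Hgfac, Itih2, Kng1 and Kng2.

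Markers of some other cell types differed between the classes. The 10 stellate cell and fibroblast markers summed to 35.1 to 87.9 CPM in the Ctnnb1-mutated tumors, 174 to 416 CPM in the others and 71.3 to 330.3 CPM in livers, and 3 of 10 were lower and 0 higher between the classes. The 9 endothelial markers tested summed to 107 to 177 CPM, 206 to 504 CPM and 125 to 310.2 CPM in the same order, with 2 lower and 0 higher. For cholangiocyte markers the sums were 29.6 to 54.4 CPM, 91.2 to 1108 CPM and 69.1 to 162 CPM, with 2 of 7 tested lower. The high sums were largely Spp1, at 13.9 and 30.5 CPM in the Ctnnb1-mutated tumors and 4.16 to 1037 CPM in the others, whereas the defining marker Krt19 was 1.26 and 0.964 CPM against at most 1.00 CPM, and Krt19 and Krt7 were at 0 reads in TCi-HCC981. Hepatocyte markers summed to 26791 to 48614 CPM, 83401 to 109445 CPM and 50566 to 80008 CPM, with 3 of 9 tested lower, and macrophage markers to 274 to 1181 CPM, 172 to 1302 CPM and 169 to 1717 CPM, with 0 of 10 called. The high hepatocyte sums were largely Alb, at 47664 to 72143 CPM in the other tumors and 9546 to 31956 CPM in livers. Apoa2 went the other way, at 3528 to 4207 CPM in the other tumors and 4704 to 11905 CPM in livers. The hepatocyte markers thus did not move together. Lymphocyte markers summed to 10.4 to 27.9, 3.98 to 39.9 and 2.08 to 51.7 CPM (0 of 10 called), neutrophil markers to 1.26 to 5.17, 2.97 to 11.6 and 1.62 to 30.3 CPM (0 of 5 called), and erythroid and platelet markers to 362 to 1679.8, 209.6 to 896 and 266 to 814 CPM (1 of 9 higher, 0 lower). Their part in the class differences was not tested.

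Among the classical and lectin genes, C4b, which encodes complement C4, ranged from 2176 to 3574 CPM (median 2544) in livers, was 849.7 and 1215 CPM in T-HCC662 and T-HCC663, and from 1696 to 2953 CPM in the other tumors. It was 2.65-fold lower in the Ctnnb1-mutated tumors than in livers (log2 fold change -1.40, SE 0.37, adjusted p = 0.0399, and 0.112 with mice as blocks), and C4a, a near-identical neighbor gene, can share its reads. Masp1, whose protein activates MASP2, was the lowest of the 48 per kilobase of transcript, at 13.8 to 49.3 CPM (median 25.2) in livers. It was 6.53 and 9.38 CPM in T-HCC662 and T-HCC663, below every liver, and 22.5 CPM in T-HCC941, 19.3 CPM in TCi-HCC981, 32.3 CPM in T-HCA992 and 33.3 CPM in TCi-HCA984. Masp1 was 3.64-fold lower against livers (log2 fold change -1.86, SE 0.48, adjusted p = 0.0345) and 3.32-fold lower against the other tumors (log2 fold change -1.73, SE 0.49, adjusted p = 0.0405, and 0.0647 with the block). C2, the protease partner of C4, was 92.6 and 103 CPM in T-HCC662 and T-HCC663, and 175 CPM in T-HCC941, 314 CPM in TCi-HCC981, 107 CPM in T-HCA992 and 196 CPM in TCi-HCA984, with 93.3 to 210.2 CPM in livers, and passed no test (adjusted p = 0.117 between the classes). In Mbl1 the order was the other way round, with a mean of 165 ± 87.0 CPM (SD, n = 2) in the Ctnnb1-mutated tumors and 82.1 ± 26.9 CPM (n = 4) in the others, without a call between them (adjusted p = 0.0936).

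C3, on which all pathways of complement meet, ranged from 4675 to 15858 CPM (median 6979) in livers, with the 2 highest values in the livers of the TCi-HCA984 and T-HCC941 mice. It was 4430.1 and 4202 CPM in T-HCC662 and T-HCC663, below every liver, and from 5247 to 14464 CPM in the other tumors, and it passed no test (adjusted p = 0.333 for the Ctnnb1-mutated tumors against livers). Cfi, whose protease cuts C3b and C4b and so damps complement, was steady in livers, from 490.2 to 667 CPM (median 579.6). It was 314 and 206 CPM in T-HCC662 and T-HCC663, and 834 CPM in T-HCC941, 845 CPM in TCi-HCC981, 959.7 CPM in T-HCA992 and 1229.6 CPM in TCi-HCA984. The Ctnnb1-mutated tumors lay below all livers and the other tumors above all livers. Cfi was 2.30-fold lower in the first (log2 fold change -1.20, SE 0.27, adjusted p = 0.0216, and 0.0676 with mice as blocks), 1.62-fold higher in the second (log2 fold change 0.69, SE 0.20, adjusted p = 0.0281, and 0.0616 with the block), and 3.72-fold lower between the classes (log2 fold change -1.89, SE 0.30, adjusted p = 0.00331). Among the 14 genes called between the classes, Cfi was the only one that passed with each of the 12 libraries left out in turn.

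Against livers, the terminal genes C8a, C8b and C9 were 7.25-fold, 6.26-fold and 5.08-fold lower in the Ctnnb1-mutated tumors (adjusted p = 0.00352, 0.00231 and 0.00297). In the other tumors they were 2.28-fold, 2.61-fold and 3.25-fold lower (adjusted p = 0.0176, 0.00467 and 0.00118). With mice as blocks the 3 values of the other tumors were 0.054, 0.0281 and 0.00508, so that the call of C8a was lost. The difference between the classes passed for C8a (log2 fold change -1.67, SE 0.43, adjusted p = 0.0305) and C8b (log2 fold change -1.26, SE 0.37, adjusted p = 0.0455), and with mice as blocks for neither of them (adjusted p = 0.0649 and 0.0925). C9 did not pass between the classes (adjusted p = 0.222), nor did C8g (log2 fold change -0.05, adjusted p = 0.935).

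The vitamin K-dependent factors need γ-carboxylation to bind calcium. F2, which encodes prothrombin, ranged from 1485 to 2296 CPM (median 1969) in livers, was 1294 and 889.9 CPM in T-HCC662 and T-HCC663, and from 1406 to 1992 CPM in the others, and passed in no comparison (adjusted p = 0.112 for the Ctnnb1-mutated tumors against livers). Proz, which encodes protein Z, a cofactor in the inhibition of factor X, had the narrowest spread in livers of these 7 genes, from 302 to 360.4 CPM (median 322). It was 139 and 127 CPM in T-HCC662 and T-HCC663, and 232 CPM in T-HCC941, 195 CPM in TCi-HCC981, 268 CPM in T-HCA992 and 323 CPM in TCi-HCA984, with the Ctnnb1-mutated pair lowest and only TCi-HCA984 within the liver range. Proz was 2.53-fold lower in the Ctnnb1-mutated tumors than in livers (log2 fold change -1.34, SE 0.21, adjusted p = 0.00348) and 1.90-fold lower than in the other tumors (log2 fold change -0.92, SE 0.21, adjusted p = 0.0202, and 0.132 with mice as blocks). Pros1, which encodes protein S, the cofactor of activated protein C, went the other way, at 141 and 138 CPM in T-HCC662 and T-HCC663, against 50.4 to 101 CPM in the others and 55.2 to 149 CPM in livers, without a call (adjusted p = 0.176).

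Contact activation begins with factor XII, prekallikrein (Klkb1), factor XI and high molecular weight kininogen, which the mouse encodes in Kng1 and Kng2. Kng1 ranged from 1692 to 2677 CPM (median 2604) in livers, was 1111 and 869 CPM in T-HCC662 and T-HCC663, and 2944 CPM in T-HCC941, 6542 CPM in TCi-HCC981, 3410.4 CPM in T-HCA992 and 5625 CPM in TCi-HCA984. The Ctnnb1-mutated tumors were below and the others above all livers, and Kng1 was 4.71-fold lower between the classes (log2 fold change -2.24, SE 0.45, adjusted p = 0.0115, and 0.0705 with mice as blocks). The 1.87-fold higher level of the other tumors against livers was called (adjusted p = 0.0478) but was lost in 11 of the 12 fits that left out 1 library and with the block (adjusted p = 0.0832).

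Kng2 behaved like Kng1, at 222 to 427 CPM (median 358) in livers. It was 179.9 and 175 CPM in T-HCC662 and T-HCC663, and 431 CPM in T-HCC941, 603 CPM in TCi-HCC981, 589 CPM in T-HCA992 and 926 CPM in TCi-HCA984, again below and above every liver. Kng2 was 3.56-fold lower between the classes (log2 fold change -1.83, SE 0.35, adjusted p = 0.00873, and 0.0595 with the block), and 1.77-fold higher in the other tumors than in livers (log2 fold change 0.82, SE 0.23, adjusted p = 0.0273). F11, which encodes factor XI, was low, from 34.8 to 108 CPM (median 60.0) in livers, 20.0 and 47.2 CPM in T-HCC662 and T-HCC663, and 131 CPM in T-HCC941, 136 CPM in TCi-HCC981, 95.1 CPM in T-HCA992 and 153 CPM in TCi-HCA984. It was 3.86-fold lower in the Ctnnb1-mutated tumors than in the others (log2 fold change -1.95, SE 0.49, adjusted p = 0.0278, and 0.011 with the block), and neither class passed against livers (adjusted p = 0.181 and 0.0707). Its neighbor Klkb1, at 75.9 to 252 CPM (median 161) in livers, was 2.35-fold lower in the 4 other tumors (log2 fold change -1.23, SE 0.32, adjusted p = 0.0167, and 0.0515 with the block), at 67.2 CPM in T-HCC941, 87.3 CPM in TCi-HCC981, 46.8 CPM in T-HCA992 and 76.9 CPM in TCi-HCA984, and was 111 and 136 CPM in T-HCC662 and T-HCC663.

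Fibrinogen is built from Aα, Bβ and γ chains, encoded by Fga, Fgb and Fgg in 1 cluster on chromosome 3. The 3 chains summed to 3291 and 4057 CPM in T-HCC662 and T-HCC663, to 16017 to 40682 CPM in the other tumors, and to 9387 to 45160 CPM in livers, where the highest value was that of the TCi-HCA984 mouse and the next was 20696 CPM in the T-HCC941 mouse. Both Ctnnb1-mutated tumors were thus below every other library. Fga ranged from 3811 to 21733 CPM (median 4789) in livers, was 1138 and 1192 CPM in T-HCC662 and T-HCC663, and 7271 CPM in T-HCC941, 8945 CPM in TCi-HCC981, 7895 CPM in T-HCA992 and 15794 CPM in TCi-HCA984.

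Fga was 6.98-fold lower in the Ctnnb1-mutated tumors than in livers and did not pass there (log2 fold change -2.80, SE 0.81, adjusted p = 0.0544), nor did Fgg (adjusted p = 0.0727) or Fgb (adjusted p = 0.13). Against the 4 other tumors, Fga was 8.48-fold lower (log2 fold change -3.08, SE 0.84, adjusted p = 0.0357) and Fgg 7.44-fold lower (log2 fold change -2.90, SE 0.80, adjusted p = 0.037), and Fgb, 4.71-fold lower, did not pass (log2 fold change -2.24, SE 0.75, adjusted p = 0.0696). With mice as blocks neither Fga nor Fgg passed (adjusted p = 0.144 and 0.124). Fgg was 616 and 865 CPM in T-HCC662 and T-HCC663, and 3201 CPM in T-HCC941, 5881 CPM in TCi-HCC981, 3139 CPM in T-HCA992 and 9987 CPM in TCi-HCA984, and Fgb was 1536 and 1999.8 CPM in T-HCC662 and T-HCC663, and 6971 CPM in T-HCC941, 6743 CPM in TCi-HCC981, 4983 CPM in T-HCA992 and 14900.2 CPM in TCi-HCA984. The chains kept unlike ratios: Fga over Fgb was 0.741 and 0.596 in T-HCC662 and T-HCC663, and 0.959 to 1.58 in the other 10 libraries. Of 11 acute phase genes in a list of their own, Stat3, the transcription factor that interleukin 6 activates, was lower in the Ctnnb1-mutated tumors than in the others, Saa3 was higher, and 9 did not pass. Stat3 was 64.8 and 75.5 CPM in T-HCC662 and T-HCC663, against 164 to 265 CPM in the others. Saa3 was 5.77 and 63.2 CPM against 2.01 to 5.74 CPM, so that its higher level rests largely on T-HCC663.

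**Figure D4:**
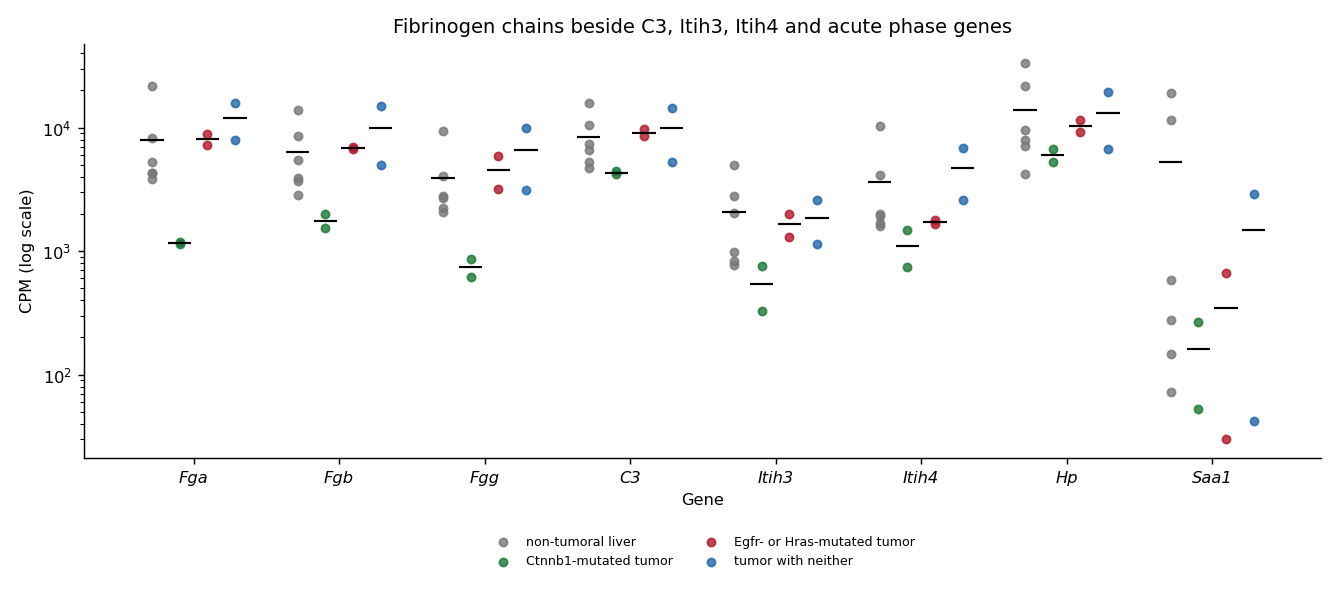
CPM (log scale) of the fibrinogen chains, C3, Itih3 and Itih4 beside the acute phase genes Hp and Saa1 in each library, with a point per library and a black line at the mean of each class. The Ctnnb1-mutated tumors are lowest for Fga, Fgb and Fgg, and the 2 high livers of Saa1 are those of the T-HCC941 and TCi-HCA984 mice.

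The promoters of Fgb and Fgg are shown as the fibrinogen windows that lie outside the annotated genes. That of Fga, which reaches into its gene in GENCODE, is not printed, and it holds a STAT match 234 bases and a C/EBP match 135 bases before the start site. They are RefSeq sequences of GRCm38 at chr3:83049864-83050113 (minus strand) and chr3:83007474-83007723 (plus strand), 250 bases before the start sites, written 5′ to 3′ with matches to the 6 motifs in capitals, and the genes span chr3:83040141-83049863 and chr3:83007724-83015049.
Fgb: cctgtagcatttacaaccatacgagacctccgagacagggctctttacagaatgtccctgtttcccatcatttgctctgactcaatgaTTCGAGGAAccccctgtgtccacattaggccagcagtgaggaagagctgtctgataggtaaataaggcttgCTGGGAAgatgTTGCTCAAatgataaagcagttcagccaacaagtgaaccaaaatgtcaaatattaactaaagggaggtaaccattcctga
Fgg: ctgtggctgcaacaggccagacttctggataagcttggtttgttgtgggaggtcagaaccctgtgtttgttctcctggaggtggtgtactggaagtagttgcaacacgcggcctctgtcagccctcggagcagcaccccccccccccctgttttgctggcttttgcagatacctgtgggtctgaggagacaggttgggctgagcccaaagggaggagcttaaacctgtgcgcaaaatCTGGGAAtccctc
Fgb has a STAT match that begins 162 bases before the start site, an interleukin 6 element 91 bases before it and a C/EBP match 80 bases before it, and Fgg has an interleukin 6 element 13 bases before it.

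Plasmin dissolves fibrin, and Plg encodes its precursor. Plg ranged from 1699 to 2841 CPM (median 2236) in livers, was 783 and 761 CPM in T-HCC662 and T-HCC663, and 1503 CPM in T-HCC941, 2270.0 CPM in TCi-HCC981, 1143 CPM in T-HCA992 and 2294 CPM in TCi-HCA984. Both Ctnnb1-mutated tumors were below every liver, and Plg was 2.88-fold lower in them (log2 fold change -1.53, SE 0.38, adjusted p = 0.0323, and 0.0832 with mice as blocks). Plg overlaps Slc22a3 on the opposite strand. Hrg, the histidine-rich glycoprotein that binds plasminogen and heparin, ranged from 638 to 1055 CPM (median 950.3) in livers, was 278 and 246 CPM in T-HCC662 and T-HCC663, and 669 CPM in T-HCC941, 1216 CPM in TCi-HCC981, 605 CPM in T-HCA992 and 1464 CPM in TCi-HCA984. It was 3.50-fold lower against livers (log2 fold change -1.81, SE 0.41, adjusted p = 0.0216) and 3.80-fold lower against the other tumors (log2 fold change -1.93, SE 0.43, adjusted p = 0.0172, and 0.0705 with the block).

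Hgfac, the protease that activates hepatocyte growth factor, ranged from 198 to 361 CPM (median 289) in livers, was 187 and 111 CPM in T-HCC662 and T-HCC663, and 562 CPM in T-HCC941, 433 CPM in TCi-HCC981, 585 CPM in T-HCA992 and 418 CPM in TCi-HCA984. The Ctnnb1-mutated tumors were below and the others above every liver, and Hgfac was 3.37-fold lower between the classes (log2 fold change -1.75, SE 0.35, adjusted p = 0.0102, and 0.0349 with the block) and 1.76-fold higher in the others than in livers (log2 fold change 0.82, SE 0.23, adjusted p = 0.0273). Habp2, a related protease, was 145 to 172 CPM in livers and 101 to 128 CPM in the other tumors, 1.40-fold lower (log2 fold change -0.48, SE 0.14, adjusted p = 0.0316, and 0.0741 with the block), and it overlaps Nrap on the opposite strand.

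Among the other plasma proteins, Ahsg encodes fetuin-A, a binder of calcium phosphate, and had the highest level per kilobase of the 48 in livers, followed by Fga and Vtn. Ahsg ranged from 4639.5 to 12722 CPM (median 6696) in livers, was 5145 and 2334 CPM in T-HCC662 and T-HCC663, and 14195 CPM in T-HCC941, 16182 CPM in TCi-HCC981, 12054 CPM in T-HCA992 and 18876 CPM in TCi-HCA984. It was 4.13-fold lower in the Ctnnb1-mutated tumors than in the others (log2 fold change -2.04, SE 0.57, adjusted p = 0.0377, and 0.157 with mice as blocks), and neither class passed against livers (adjusted p = 0.264 and 0.0638). Itih2, a heavy chain of the inter-α-trypsin inhibitor that is joined to hyaluronan, ranged from 637 to 1124 CPM (median 828) in livers, was 597 and 478 CPM in T-HCC662 and T-HCC663, and 1048 CPM in T-HCC941, 2304 CPM in TCi-HCC981, 1089 CPM in T-HCA992 and 1914 CPM in TCi-HCA984. It was 2.98-fold lower between the classes (log2 fold change -1.57, SE 0.42, adjusted p = 0.0327, and 0.141 with the block) and 1.84-fold higher in the others than in livers (log2 fold change 0.88, SE 0.28, adjusted p = 0.0439, and 0.0684 with the block).

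Itih3 and Itih4 are sister chains in a cluster on chromosome 14, and their highest values were in the liver of the TCi-HCA984 mouse. Itih3 was 4937 and 2773 CPM in the livers of the TCi-HCA984 and T-HCC941 mice, 766 to 2036 CPM in the other 4, 325 and 751 CPM in T-HCC662 and T-HCC663, and 1150.3 to 2577 CPM in the other tumors, and passed in no comparison. The median was 1512 CPM in livers. Itih4 had 1605 to 10246 CPM in livers (median 1970.1) and 1644 to 6888 CPM in the other tumors. Vtn, which encodes vitronectin, an inhibitor of the terminal complex, ranged from 2731 to 7031 CPM (median 4183) in livers and from 1479 to 3396 CPM in tumors, and was lower than the own liver in 6 of 6 mice without passing the test (adjusted p = 0.0815). Ambp encodes the light chain of the same inhibitor, bikunin, together with α1-microglobulin, and was 2.72-fold lower in the Ctnnb1-mutated tumors than in livers (log2 fold change -1.44, SE 0.37, adjusted p = 0.0371, and 0.137 with the block). Apoh, or β2-glycoprotein I, was 1040.0 and 695 CPM in T-HCC662 and T-HCC663, 1023 to 2475 CPM in the others and 1296 to 1845 CPM in livers, and passed in no comparison.

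5 of these genes, Ahsg, Fetub, Hrg, Kng2 and Kng1, stand in a row on chromosome 16 with gaps of 11.3 to 28.4 kb, and their proteins share cystatin-like domains. Between the classes, 4 of the 5 were lower in the Ctnnb1-mutated tumors, and Fetub did not pass (log2 fold change -1.24, SE 0.53, adjusted p = 0.14). Against livers, the log2 fold changes of the 4 other tumors were 1.05 for Ahsg, 0.12 for Fetub, 0.12 for Hrg, 0.82 for Kng2 and 0.90 for Kng1, of which Kng1 and Kng2 passed, and whether these changes differ from each other was not tested. The median of chromosome 16 differed from that of all genes by -0.06 to 0.16 in log2 ratio to the own liver.

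**Figure D5:**
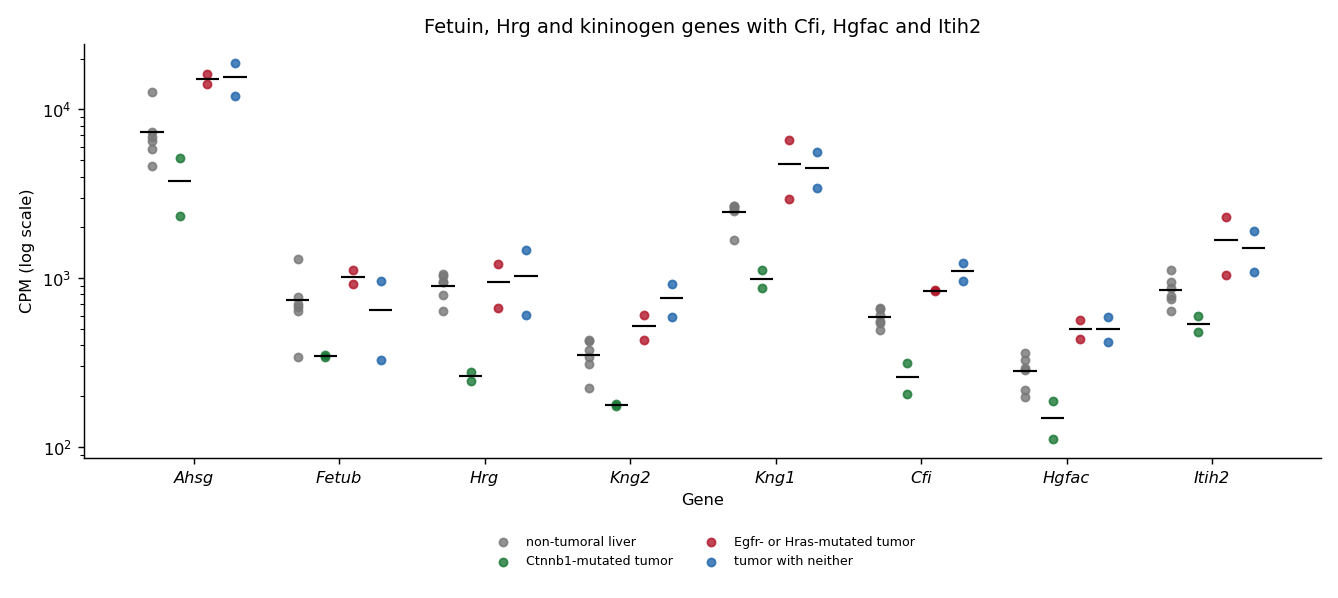
CPM (log scale) of the chromosome 16 neighbors Ahsg, Fetub, Hrg, Kng2 and Kng1 and of Cfi, Hgfac and Itih2 in each library, with a point per library and a black line at the mean of each class. For Kng1, Kng2, Cfi and Hgfac the Ctnnb1-mutated tumors lie below and the other tumors above all 6 livers.

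Tumors with a mutated Egfr or Hras were compared with the 2 that carry none of the 3 mutations. The study reports an expression signature of MAPK signaling in the mutated tumors and in T-HCA992 as well. The comparison is therefore one of mutations, not of pathway activity. 0 of the 48 genes passed by edgeR, 0 had an unadjusted p under 0.05, and 0 passed by DESeq2, while over all 15182 genes 0.0% were called by edgeR, 1331 had an unadjusted p under 0.05 and 105 passed by DESeq2. C9 had the smallest p, with 98.3 and 86.5 CPM in the mutated and 129 and 191 CPM in the other pair (log2 fold change -0.82, SE 0.38, adjusted p = 0.577). Proz was next (log2 fold change -0.50, SE 0.24, adjusted p = 0.584).

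The genotypes were compared to ask whether an active and an inactive Tert went with different levels. Within p21+/Tert mice, 4 of the 48 genes were lower in the 4 tumors than in the 4 livers and 0 were higher (6.49% of all genes passed, 2.3% as lower and 4.2% as higher). In edgeR 17 were lower and 0 higher at an unadjusted p under 0.05, and DESeq2 called 16 lower and 0 higher. These were C9 (log2 fold change -2.22, SE 0.32, adjusted p = 0.00488), C8b (log2 fold change -2.23, SE 0.33, adjusted p = 0.00546), Masp2 (log2 fold change -1.04, SE 0.22, adjusted p = 0.0229) and F7 (log2 fold change -1.03, SE 0.26, adjusted p = 0.0392). F7 encodes factor VII, which starts coagulation with tissue factor, and had 233, 221, 272 and 122 CPM in the livers of the p21+/Tert mice and 103, 119, 108 and 93.6 CPM in their tumors, each in the order T-HCC662, T-HCC663, T-HCC941, T-HCA992. It lay lower in 4 of 4 mice and passed with mice as blocks (adjusted p = 0.0478). Its call held in only 5 of the 12 fits that left out 1 library (adjusted p up to 0.117), and was lost without any 1 of the 4 tumors. The count fell to 2 without the liver of the T-HCC662, T-HCC663 or T-HCC941 mouse and without the livers of the T-HCC941 and TCi-HCA984 mice, and C8b and C9 passed in all 12 fits that left out 1 library.

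Within p21+/TertCi mice, 2 tumors against 2 livers, 0 of the 48 genes passed by edgeR and 0 by DESeq2, and 6 had an unadjusted p under 0.05. Over all genes, 0.0% were called by edgeR, 1618 had an unadjusted p under 0.05 and 375 passed by DESeq2. Mbl1 had the smallest p, at 190.2 and 241 CPM in the livers and 46.4 and 111 CPM in their tumors (log2 fold change -1.46, SE 0.58, adjusted p = 0.414). The difference between the genotypes was itself tested. It was positive, toward higher tumor levels in p21+/TertCi mice, in 42 of 48 genes (median log2 difference 0.55, against -0.06 over all genes), but 0 passed by edgeR, 5 had an unadjusted p under 0.05, and 0 passed by DESeq2. Over all genes 0.0% were called, 556 had an unadjusted p under 0.05 and 10 passed by DESeq2. C2 had the smallest p (log2 difference 1.56, SE 0.52), at 314 and 196 CPM in the p21+/TertCi tumors and 124 ± 43.0 CPM (SD, n = 2) in their livers, against 119.6 ± 37.8 CPM (n = 4) in p21+/Tert tumors and 170.3 ± 46.7 CPM (n = 4) in their livers.

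Since both Ctnnb1-mutated tumors are p21+/Tert, the genotypes were also compared in tumors without them, TCi-HCC981 and TCi-HCA984 against T-HCC941 and T-HCA992. 37 of the 48 genes were higher in the p21+/TertCi tumors (median log2 fold change 0.36, against 0.03 over all genes), and 0 passed by edgeR, where 0.0% of all genes did and 1126 had an unadjusted p under 0.05. 6 of the 48 had an unadjusted p under 0.05. Hrg had the smallest, at 1216 and 1464 CPM against 669 and 605 CPM (log2 fold change 1.09, SE 0.33, adjusted p = 0.523), and was the 1 gene of the 48 that passed by DESeq2 (107 of all genes did). Itih2 came next (log2 fold change 1.00, SE 0.34, adjusted p = 0.582). In livers, p21+/TertCi against p21+/Tert, 0 of the 48 genes passed by edgeR and 0 by DESeq2, 1 had an unadjusted p under 0.05, and 22 were higher and 26 lower. Over all genes 0.0% were called, 756 had an unadjusted p under 0.05 and 42 passed by DESeq2. That gene was Mbl2, at 269.6 and 173 CPM in p21+/TertCi and 493 to 674 CPM in p21+/Tert livers (log2 fold change -1.34, SE 0.43, adjusted p = 0.93).

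The livers also differed among themselves. That of the TCi-HCA984 mouse was above the 5 others in 18 of the 48 genes, where 21.2% of all genes were, and below them in 10, where 21.8% were. Its Itih4 level was 5.30 times the median of the others, Fga 5.03 times, Itih3 5.00 times, Fgb 3.55 times, Fgg 3.52 times, Cpb2 (an inhibitor of fibrinolysis) 3.35 times and C3 2.40 times. The haptoglobin gene Hp, an acute phase gene, was at 33434 CPM in this liver, 21783 CPM in that of the T-HCC941 mouse and 4233 to 9523 CPM in the others. On the low side of the same liver were Mbl2 at 0.334 of the median, Klkb1 at 0.409 and F7 at 0.452. In TCi-HCA984, the tumor of the same mouse, the fibrinogen sum was 40682 CPM, the highest of the tumors, and Saa1 was 2922 CPM, against at most 665 CPM in the other 5.

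Other genes of the pathways were read from lists of 31 complement, 24 coagulation and 5 vitamin K cycle genes. In all tumors against livers, 2 of 27 complement genes tested were higher. These were the C5a receptor C5ar1 (log2 fold change 1.66, SE 0.39, adjusted p = 0.0178) and Cd93 (log2 fold change 2.72, SE 0.45, adjusted p = 0.00309), both expressed outside hepatocytes. C4a, the near-identical neighbor of C4b (log2 fold change -2.10, SE 0.44, adjusted p = 0.0101), and the complement inhibitor Cd59b (log2 fold change -1.23, SE 0.34, adjusted p = 0.0344) were among those that were lower. Of 20 coagulation genes 3 were higher and 0 lower: the urokinase gene Plau (log2 fold change 1.68, SE 0.50, adjusted p = 0.0496), its receptor Plaur (log2 fold change 1.96, SE 0.41, adjusted p = 0.00915) and the protease receptor F2rl1 (log2 fold change 4.33, SE 1.09, adjusted p = 0.0245), which was at 5.67 to 19.3 CPM in the 4 tumors without mutated Ctnnb1 and under 1 CPM elsewhere. Plau and Plaur were low, at 3.42 to 16.5 and 2.37 to 7.29 CPM in tumors. In the list for the vitamin K cycle, Nqo1 was higher (log2 fold change 2.52, SE 0.57, adjusted p = 0.0149), at 14.8 to 225 CPM in tumors and 9.02 to 24.7 CPM in livers. The study counts Nqo1 among the target genes of Nrf2 (Nfe2l2). Vkorc1 of the same list went the other way, at 98.6 to 187 CPM in tumors and 176 to 222 CPM in livers.

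Between the classes, 5 of 23 coagulation genes tested were lower in the Ctnnb1-mutated tumors and 0 were higher. Serpinf2 encodes α2-antiplasmin and was 251 and 566 CPM against 1445 to 2202 CPM in the others (log2 fold change -2.15, SE 0.44, adjusted p = 0.0123). Serpind1, or heparin cofactor II, was also lower (log2 fold change -1.35, SE 0.33, adjusted p = 0.0238), as were the thrombin receptor gene F2r, F2rl1 and Tfpi, the tissue factor pathway inhibitor (adjusted p = 0.0198, 0.0189 and 0.0464). Of 30 complement genes, C1rb, Cfhr2, Colec10 and Cr1l were lower and C1s2 was higher, the last at under 4 CPM in all libraries. Ggcx, the γ-carboxylase that acts on the vitamin K-dependent factors, was 35.8 and 30.5 CPM against 50.5 to 95.0 CPM in the others and 56.7 to 97.8 CPM in livers (log2 fold change -1.08, SE 0.27, adjusted p = 0.0261).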

How the data were processed

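Poly(A) RNA was sequenced as paired reads. The authors filtered reads by quality, aligned them to mm10, extended by mCherry, using Subread, and obtained counts of each gene from featureCounts 1.6.4. The deposited values are raw counts. The annotation release, strand and multi-mapping settings are not given in the sources used here. A correction by sequencing run that the authors made was left out here, since the sources do not say which sample was in which run.

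Groups follow the genotype and tissue in the labels, and tumor classes the mutations that the study names. Counts were tested with edgeR 4.0.16 in R 4.3.3 (TMM, filterByExpr, quasi-likelihood F test, Benjamini-Hochberg adjustment over all genes tested, threshold 0.05). Comparisons within a genotype or class used all 12 libraries in 1 model. The SE is the log2 fold change divided by the square root of F. CPM are relative to library sizes scaled by TMM, and log2 ratios add 1 CPM. The script was tested on simulated counts. P-values of the main fits measure the spread between libraries and ignore that a tumor and a liver come from 1 mouse. Only the fits with mice as blocks take account of this pairing.

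Values by library are given for 30 genes: those past the threshold, at most the 8 of smallest p, in the comparisons of tumors, or tumor classes, with livers and of the classes with each other, the 2 of smallest p in each other comparison, reference genes of the cascades (Fga, Fgb, Fgg, F2, Plg, C3 and Hc), and the 3 highest and 3 lowest per kilobase in livers. Other genes named are single values chosen after they were seen. The 48 genes and all lists were chosen with earlier results of these data known. Same-numbered samples come from 1 mouse, so numbers pair them. Deviations of a tumor and the liver of the same mouse from their group means correlated with r of 0.04 to 0.55, where with 2 mice per group the sign is partly forced. For T-HCC663 and T-HCC941, the liver of another p21+/Tert mouse gave a higher r (0.19 against 0.05, and 0.07 against 0.04). For these mice the correlations do not show the pairing, which rests on the numbers. Alternatives were DESeq2 1.42.0, RLE size factors, no low-count filter, the mouse as a block (all 6 mice, or the 5 whose liver and tumor numbers match in the labels), only the libraries compared, and each library left out. Positions are from GENCODE on GRCm38. One result is not reported here.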

Additional observations from a re-analysis of the deposited data

Results flagged for a closer look

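In groups of 4 to 10 libraries, a library was marked where its gap to the nearest other took up an unusual share of the whole range (Dixon's 95% limit). Of 150 groups tested for the 30 named genes, 12 were marked, and chance marks about 1 group in 20. In livers, these were the high Mbl1 of the T-HCC941 mouse (414 CPM), the low Kng1 of the T-HCA992 mouse (1692 CPM, also among the p21+/Tert livers alone) and the high Fga (21733 CPM), Fgg (9464 CPM) and Ahsg (12722 CPM) of the TCi-HCA984 mouse. Among the p21+/Tert livers, Itih3 of the T-HCC941 mouse (2773 CPM) and Proz of the T-HCC662 mouse (359 CPM) were high. In tumors, Mbl1 was high in T-HCC662 (227 CPM) among all 6 and among the p21+/Tert tumors, Mbl2 was low in T-HCC941 (179 CPM) among the p21+/Tert tumors, and Hc was low in T-HCA992 (863 CPM) among the 4 tumors without mutated Ctnnb1.

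With mice as blocks, the Ctnnb1-mutated tumors changed against their own livers otherwise than the 4 other tumors for Cfi (log2 difference -1.996, edgeR adjusted p = 0.0483), F11 (-3.08, adjusted p = 0.011) and Hgfac (-2.13, adjusted p = 0.0349). Among the 30 named genes, some were marked because every tumor of one group was lower than its own liver and every tumor of the other group higher. By mutation these were Cfi, F11, Kng1, Kng2, Hgfac, Ahsg and Itih2, with largest log2 ratios in the 4 other tumors of 0.97, 1.42, 1.39, 1.40, 1.504, 1.38 and 1.40. The smallest were 0.47, 1.04, 0.19, 0.018, 0.36, 0.57 and 0.42 in the same order, so that Kng2 in T-HCC941 hardly differed from its own liver. By genotype they were Plg and Hrg, with largest log2 ratios of 0.34 and 0.63 in the p21+/TertCi tumors. Plg was as low as 0.034 there, and Hrg was as near 0 as -0.077 in the p21+/Tert tumors. Of the other 18 genes, C4bp and Cfb by mutation and F9 and Fetub by genotype showed the same pattern. Their ratios nearest to 0 were 0.060, 0.016, 0.027 and -0.058. In the opposite-sign comparison itself the difference was not tested. How many of all genes show the same pattern was not counted, so it is not shown to be particular to these genes. The named genes marked by mutation had all been called between the classes on the same libraries, which favors the pattern. With the block, Kng1, Kng2, Ahsg and Itih2 did not pass (adjusted p = 0.0705, 0.0595, 0.157 and 0.141).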

How the results depend on the processing

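With the mouse as a replicate block, 8 of the 48 genes passed in tumors against livers (main count 6), 8 in the Ctnnb1-mutated tumors against livers (11), 8 in the other tumors against livers (13) and 3 between the classes (14). In p21+/Tert mice 5 passed with it (4), and on the 5 mice whose numbers match in the labels 5 passed in tumors against livers. DESeq2 called more: 12 in tumors against livers, 16 in p21+/Tert mice (4), 26 in the Ctnnb1-mutated tumors, 24 in the others, 24 between the classes and 1 between genotypes in tumors without mutated Ctnnb1 (0). Over all genes it called 2407, 2109, 2126, 4355, 3111 and 107 in the same order, where edgeR called 1476, 986, 1245, 3459, 1895 and 0. The libraries of the classes alone gave 5 between the classes, and 839 over all genes, against 441 over all genes with the block. Without the livers of the T-HCC941 and TCi-HCA984 mice, an alternative chosen after their Saa1 levels were seen, 3, 2 and 6 genes passed in tumors, in p21+/Tert mice and in the Ctnnb1-mutated tumors. In the same fits, 10 passed in the other tumors (main count 13) and 17 between the classes (14). Leaving out 1 library at a time gave 3 to 9 genes in tumors against livers, 2 to 4 in p21+/Tert mice, 3 to 13 in the Ctnnb1-mutated tumors, 7 to 18 in the others and 2 to 16 between the classes, the highest count of the 3 last and of the first coming without the liver of the TCi-HCA984 mouse. RLE size factors and no low-count filter left each count within 1.5 times the main one. The cause of these shifts was not tested. Over all alternatives, 1028 values of single genes kept their direction, 218 of them lost a call and 1 gained it. These values cover only 58 results, each called in the main fit or among the 2 of smallest p in its comparison. Since the results were selected in this way and the fits share most libraries, a change of direction was unlikely beforehand. With 2 tumors in a class, its spread rests largely on the other groups, and differences that did not pass are not shown to be absent.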
